A study of Mus musculus with 4 samples.

Results

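TMEM176 and MS4A genes encode a superfamily of small proteins that cross the membrane several times, and 6 of them were followed in mouse T-helper 17 (Th17) cells: Tmem176a, Tmem176b, Ms4a1, Ms4a4b, Ms4a4c and Ms4a6b. The members were taken by name, and all 6 were found among the 50600 genes of the count tables, on 2 chromosomes. RNA from 4 libraries of 1 group was sequenced, all of primary Th17 cells of the C57BL/6NJ mouse strain, numbered as biological replicates 1 to 4 by the labels. Age and sex are not recorded there, all 4 libraries carry the same donor label, and their names in the file headers hold the marks 72hr and Sorted. The labels title the assay total RNA-seq, while the library protocol linked there is named for poly(A)+ RNA, so whether the libraries were selected for polyadenylated RNA is not settled and the levels may reflect either. With 1 group and no other cell type or treatment, the comparisons are between genes of the same library and between the libraries. Nothing in the labels ties the libraries to separate animals or cultures, so the spread and the p-values describe these libraries and may be partly technical. The level of Xist, an RNA made by an inactive X chromosome, differed widely between the libraries, as given below, and their sex was not tested.

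TMEM176A and TMEM176B are related cation channels of intracellular membranes, including the Golgi apparatus, and are known in mice as transcripts shared by dendritic cells, Th17 cells and innate lymphoid cells. MS4A proteins are better known as surface markers. MS4A1 is the B-cell antigen CD20, MS4A2 is the beta chain of the high-affinity IgE receptor of mast cells, and mouse MS4A4B is a protein of T cells that modulates their activation and proliferation and binds the costimulatory receptor GITR. Several other mouse Ms4a genes, among them Ms4a6c, Ms4a6d, Ms4a4a and Ms4a7, are known mainly from monocytes and macrophages.

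Promoter windows were printed because the members fall into 2 arrangements that the results return to, a divergent pair and a row of duplicated genes. In mm10, Tmem176b (ENSMUSG00000029810.15) lies on the minus strand of chromosome 6 from 48833818 to 48841496 and Tmem176a (ENSMUSG00000023367.14) on the plus strand from 48840919 to 48847071, so that the annotated genes overlap head to head by 578 bases. Each window below holds 250 bases before and 50 bases after a start listed by RefSeq (GRCm38.p6), 5′ to 3′ on the strand of the gene. For this pair the capitals mark the 155 bases that both windows cover, from 48841233 to 48841387, read on opposite strands. The starts chosen, the first listed for each gene, lie 346 bases apart.
Tmem176b, chr6:48841088-48841387, minus strand: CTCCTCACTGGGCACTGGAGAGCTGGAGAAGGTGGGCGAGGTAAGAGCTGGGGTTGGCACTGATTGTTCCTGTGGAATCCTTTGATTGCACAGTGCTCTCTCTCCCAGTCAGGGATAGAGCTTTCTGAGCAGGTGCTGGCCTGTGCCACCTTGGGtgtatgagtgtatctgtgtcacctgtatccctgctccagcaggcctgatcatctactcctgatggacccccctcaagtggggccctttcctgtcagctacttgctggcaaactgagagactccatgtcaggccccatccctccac
Tmem176a, chr6:48841233-48841532, plus strand: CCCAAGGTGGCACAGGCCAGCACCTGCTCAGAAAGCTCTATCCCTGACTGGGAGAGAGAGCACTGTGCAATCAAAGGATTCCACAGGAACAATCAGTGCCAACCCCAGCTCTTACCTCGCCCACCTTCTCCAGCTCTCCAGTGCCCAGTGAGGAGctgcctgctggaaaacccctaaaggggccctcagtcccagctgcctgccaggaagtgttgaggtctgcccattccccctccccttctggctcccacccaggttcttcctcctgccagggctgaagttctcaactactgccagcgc

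The MS4A members lie in a cluster on chromosome 19. Ms4a1 (ENSMUSG00000024673.9, minus strand) spans 11249675 to 11266241. Ms4a4c (ENSMUSG00000024675.19), Ms4a4b (ENSMUSG00000056290.15) and Ms4a6b (ENSMUSG00000024677.13) lie on the plus strand at 11404770 to 11427246, 11443553 to 11463549 and 11516512 to 11531256. The windows of Ms4a4b and Ms4a4c are shown because they share a start region, with 159 identical bases in a local alignment of 178 columns (89.3%), while their transcripts differed in level. The windows of Ms4a6b and its neighbour Ms4a6c, whose transcripts also differed in level, share 193 identical bases in 234 aligned columns (82.5%). In the Ms4a6b window the aligned stretch ends before the listed start, while in the Ms4a6c window it runs past the start. Capitals mark the bases that were identical within each pair.
Ms4a4b, chr19:11443308-11443607, plus strand: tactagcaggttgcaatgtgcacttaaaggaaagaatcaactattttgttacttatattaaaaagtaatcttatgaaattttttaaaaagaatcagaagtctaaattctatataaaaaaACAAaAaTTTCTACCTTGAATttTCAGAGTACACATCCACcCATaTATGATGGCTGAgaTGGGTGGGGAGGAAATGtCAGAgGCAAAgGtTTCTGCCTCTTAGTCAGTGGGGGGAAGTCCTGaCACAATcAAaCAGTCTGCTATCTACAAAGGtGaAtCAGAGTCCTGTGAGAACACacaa
Ms4a4c, chr19:11407411-11407710, plus strand: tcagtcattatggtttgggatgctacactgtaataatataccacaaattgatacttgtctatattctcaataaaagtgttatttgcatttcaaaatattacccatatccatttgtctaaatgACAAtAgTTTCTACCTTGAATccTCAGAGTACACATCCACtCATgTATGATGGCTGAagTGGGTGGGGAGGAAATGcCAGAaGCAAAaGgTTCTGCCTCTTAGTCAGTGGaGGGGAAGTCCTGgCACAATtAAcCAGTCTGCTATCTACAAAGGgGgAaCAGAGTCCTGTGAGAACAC
Ms4a6b, chr19:11518309-11518608, plus strand: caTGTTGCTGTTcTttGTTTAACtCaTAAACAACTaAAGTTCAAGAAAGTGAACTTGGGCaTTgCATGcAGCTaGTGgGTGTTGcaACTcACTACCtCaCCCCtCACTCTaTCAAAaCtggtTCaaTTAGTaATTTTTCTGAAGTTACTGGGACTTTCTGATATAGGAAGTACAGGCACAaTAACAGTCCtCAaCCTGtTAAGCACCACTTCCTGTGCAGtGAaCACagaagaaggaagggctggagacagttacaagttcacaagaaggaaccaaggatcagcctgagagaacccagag
Ms4a6c, chr19:11469118-11469417, plus strand: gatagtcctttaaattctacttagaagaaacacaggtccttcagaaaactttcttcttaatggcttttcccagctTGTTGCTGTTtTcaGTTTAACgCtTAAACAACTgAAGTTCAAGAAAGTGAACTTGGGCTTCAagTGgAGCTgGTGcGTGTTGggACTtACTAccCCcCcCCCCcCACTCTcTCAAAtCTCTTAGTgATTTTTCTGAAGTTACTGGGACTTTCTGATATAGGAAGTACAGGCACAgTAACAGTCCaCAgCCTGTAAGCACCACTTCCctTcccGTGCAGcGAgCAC

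The levels of the 6 members covered a range from 267 TPM to no count. TPM scales counts by gene length and to a fixed sum per library, and is used for every level between genes. Tmem176b and Tmem176a were abundant, Ms4a6b was intermediate, Ms4a4b was low, Ms4a4c was near the limit of detection and Ms4a1 was not detected. At least 1 TPM in every library was reached by 4 of the 6 members, beside 10367 of 21764 protein-coding genes (47.6%), whose median, where they reached it, was 32.0 TPM. The TMEM176 pair made up 85.6% to 94.3% of the summed TPM of the 6 members in a library. The libraries held from 9382661 counts (replicate 3) to 34542693 counts (replicate 1), so the low members rest on few counts.

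**Figure D1:**
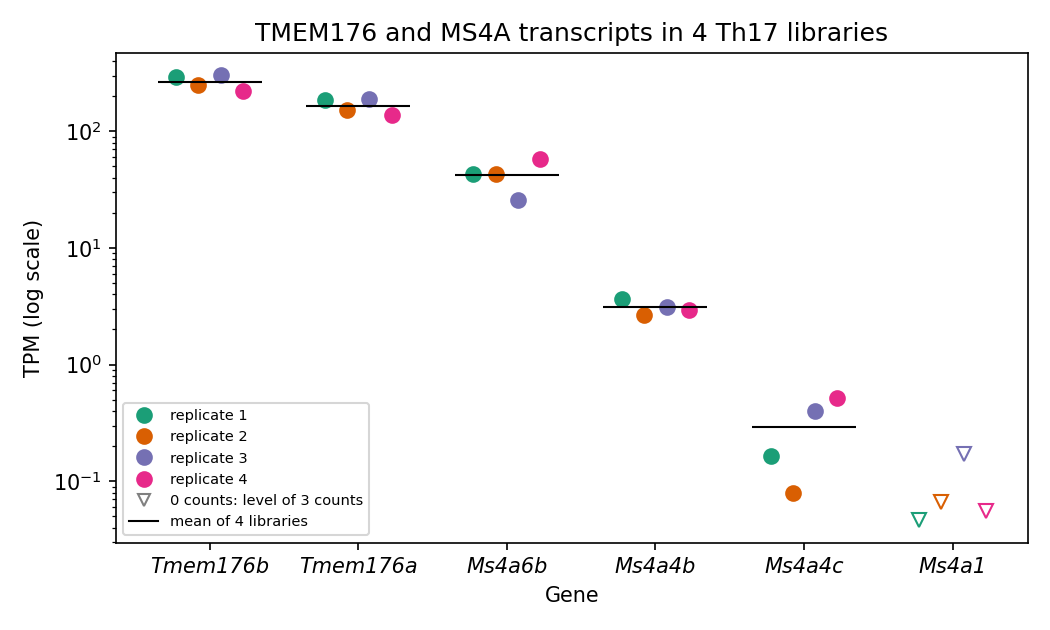
TPM on a log axis for the 6 genes, with 1 point per library, a line at the mean of the 4 libraries, and open triangles at the level of 3 counts where a library held 0 counts. Tmem176b and Tmem176a lie above 100 TPM in every library, Ms4a6b between 25.9 and 57.6 TPM, and Ms4a1 has triangles in all 4.

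Tmem176b had 291, 252, 302 and 223 TPM in replicates 1 to 4, a mean of 267 ± 36.5 TPM (SD, n = 4). It stood at rank 623 among protein-coding genes. Tmem176a had 187, 151, 188 and 139 TPM, a mean of 166 TPM with a CV (coefficient of variation, the SD over the mean) of 15.03%, at rank 1109. For both genes replicates 3 and 1 were high and replicate 4 was low, and the ranges of the 2 genes did not overlap on this scale. As background for a Th17 population, the Th17 list held its genes at 1 TPM or more in every library (12 of 12), led by the cytokine genes Il17f and Il17a at 11651 ± 878 and 7787 ± 754 TPM, and so did the T-cell list (10 of 10), led by Cd5 and the receptor gene Trac at 1384 ± 32.5 and 1041 ± 97.7 TPM.

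The order within the TMEM176 pair depended on the length assigned to each gene. Summed over the 4 libraries, Tmem176b held 18249 counts and Tmem176a 18336 counts, and the ratio of counts was 1.00 ± 0.0284 (SD, n = 4). In TPM the ratio was 1.56, 1.67, 1.61 and 1.60 in replicates 1 to 4, a mean of 1.61 ± 0.0457. The merged exons used for it measure 2371 bases for Tmem176b and 3810 bases for Tmem176a. With the longest protein-coding transcript in its place (1648 bases for Tmem176b and 1540 bases for Tmem176a), Tmem176b was the lower gene, with a ratio of 0.935 ± 0.0266 and a log2 difference of -0.097 ± 0.0407. A difference in transcript abundance between the 2 genes can therefore not be given without knowing which transcripts the cells use, which gene counts do not tell.

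**Figure D2:**
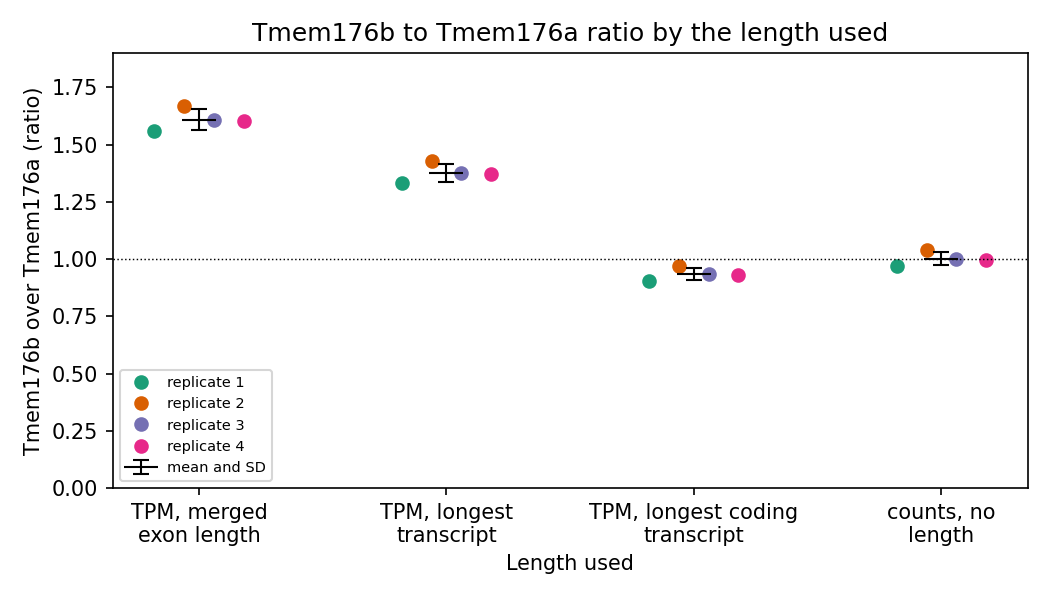
Ratio of Tmem176b to Tmem176a in each library (points), with its mean and SD (bars), for TPM from the merged exons, from the longest transcript and from the longest protein-coding transcript, and for counts without a length. The ratio lies above 1 with the first and second lengths, below 1 with the third and on both sides of 1 for counts, while the points of each setting stay close together.

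The ratio varied much less than either gene. Its CV was 2.84%, against 13.7% for Tmem176b and 15.03% for Tmem176a in TPM. Counting error alone would give a CV of 1.66% for each gene, and a larger one for their ratio, which was not computed. The values of the pair moved together between libraries, while neither gene varied more than genes of its abundance past the threshold (edgeR adjusted p = 0.8922 for Tmem176b and 0.875 for Tmem176a). The genes overlap on opposite strands, and the authors counted by strand. Only 13 of the 2733 distinct windows of 50 bases in Tmem176b transcripts (0.476%) also occurred in Tmem176a, on either strand (read length not given in the sources used here).

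A gene family on the Tmem176b side of the pair was followed for comparison. The Gimap genes, which encode GTPases that support lymphocyte survival, lie beside Tmem176b on chromosome 6, from 62966 bases (Gimap3) to 172942 bases (Gimap8) away. All 9 reached 1 TPM in every library. Gimap4 was the highest at 518 ± 28.0 TPM, followed by Gimap3 at 234 ± 13.7 TPM and Gimap9 at 157 ± 5.64 TPM (SD, n = 4). Gimap1, Gimap8, Gimap5 and Gimap6 had 92.3 ± 3.71, 86.7 ± 3.39, 71.2 ± 5.42 and 70.2 ± 6.98 TPM, while the antisense transcript Gimap1os and Gimap7 had 10.6 ± 0.835 and 5.90 ± 2.12 TPM. Their CVs in TPM ran from 3.58% to 35.9% with a median of 5.86%. The CVs in CPM of all genes in the fit, of every abundance, had a median of 7.91%. In CPM, 1 of 9, Gimap5, had its extremes in the same libraries as the TMEM176 pair, with replicate 3 high and replicate 4 low, beside 20.6% of all genes in the fit. The reverse extremes were found in 3 of 9, Gimap3, Gimap6 and Gimap7, beside 20.5% of all genes. Directly next to the pair, the pseudogene Gm17834 had 0 counts and the processed transcript Gm44764 had 4 counts in all.

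Ms4a6b, a family member described in T cells and myeloid cells, was the most abundant of the MS4A members and differed between libraries. It had 42.7, 42.7, 25.9 and 57.6 TPM in replicates 1 to 4, a mean of 42.2 ± 12.96 TPM (SD, n = 4), at rank 4302 among protein-coding genes. Replicate 4 was high and replicate 3 low, with a ratio of 2.23 between them. The CV was 30.7%, while counting error would give 3.04%. Ms4a6b alone held 90.6% of the 6618 counts of the 19 Ms4a genes in the tables.

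Ms4a4b was low in all 4 libraries. It had 201, 101, 47 and 137 counts, or 3.63, 2.64, 3.13 and 2.96 TPM in replicates 1 to 4, a mean of 3.09 ± 0.413 TPM (SD, n = 4). No library stood apart, and the CV of 13.4% was close to the 10.3% that counting error gives. A separate gene model in the table used by the authors, just beyond the end of Ms4a4b at 11465250 to 11467055, belongs to Ms4a4b in the later annotation (GENCODE release 21), but it held 8 counts against the 486 counts of Ms4a4b.

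Ms4a4c, the tandem neighbour of Ms4a4b, had 3, 1, 2 and 8 counts in replicates 1 to 4, or 0.163, 0.0788, 0.401 and 0.521 TPM. Its 14 counts in all have a 95% Poisson interval of 7.65 to 23.5 counts, and 8 of them came from replicate 4. Per base of exon and over all libraries, Ms4a4b exceeded Ms4a4c 11.5-fold, with a 95% interval of 6.80 to 21.2 that covers counting error only. Reads that match both genes were not counted: 8.18% of the distinct windows of 50 bases in Ms4a4c transcripts occurred in another gene, most of them in Ms4a4b, and 2.40% of those of Ms4a4b. The transcripts were 82.3% identical over 1829 aligned columns.

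Ms4a1 had 0 counts in each of the 4 libraries. A count of 0 allows up to 3 counts, which for its 6187 bases of exon is 0.0462, 0.0669, 0.170 and 0.0553 TPM in replicates 1 to 4. Other markers of B cells were scarce as well: 0 of 8 reached 1 TPM in every library, and their sum ran from 0.241 to 0.742 TPM. The antigen receptor chains Cd79a and Cd79b held 10 and 11 counts, and Cd22 and Fcer2a none. In bulk RNA, fewer cells of a type and less RNA per cell cannot be told apart.

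For neighbours in the order of levels, the differences of log2(TPM + 1) within a library were 0.68 ± 0.0404 for Tmem176b minus Tmem176a, 1.99 ± 0.649 for Tmem176a minus Ms4a6b, 3.35 ± 0.507 for Ms4a6b minus Ms4a4b and 1.67 ± 0.263 for Ms4a4b minus Ms4a4c (SD, n = 4). Adding 1 TPM understates differences from the lowest genes. The 10 pairs of members with counts each kept 1 sign in 4 of 4 libraries, so in the exact sign-flip permutation test (two-sided) 2 of the 16 sign assignments were as extreme for each. In the other 5 pairs the sign was fixed by the 0 counts of Ms4a1, and their test says nothing. With 4 libraries no smaller share can occur, and Benjamini-Hochberg adjustment over the 15 pairs left it as it was, so the design could not bring any pair under 0.05. The last 2 members in the order cannot be separated in replicates 1, 2 and 3, where Ms4a4c was at or under 3 counts.

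Among the rest of the Ms4a family, low or missing transcripts were the rule. Of the 19 Ms4a genes, 2 reached 1 TPM in every library (Ms4a6b and Ms4a4b, 10.5%), 8 had any count and 11 had none. The macrophage gene Ms4a6d came next, with 1.04, 0.875, 1.42 and 2.04 TPM in replicates 1 to 4, and Ms4a4a, known from alternatively activated macrophages, had 0.342, 0.661, 0 and 1.09 TPM. Ms4a6c, Ms4a4d and Ms4a8a had means of 0.396, 0.224 and 0.0609 TPM, on 26, 12 and 4 counts. Besides Ms4a1, the mast-cell gene Ms4a2, the myeloid progenitor gene Ms4a3 and the macrophage gene Ms4a7 had 0 counts, as had Ms4a5, Ms4a10, Ms4a12, Ms4a13, Ms4a14, Ms4a15 and Ms4a18.

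**Figure D3:**
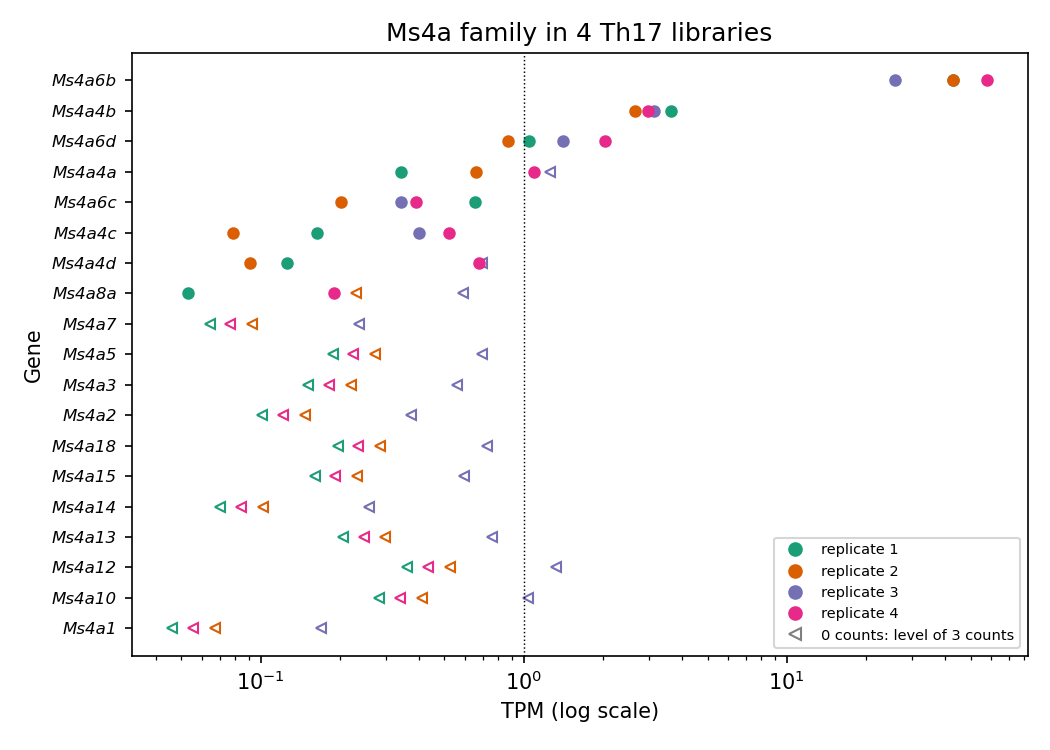
TPM on a log axis for the 19 Ms4a genes, with 1 point per library and open triangles at the level of 3 counts where a library held 0 counts, and a dotted line at 1 TPM. Ms4a6b and Ms4a4b lie right of the line in all 4 libraries, and 11 genes have triangles only.

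Genes that lie next to the MS4A members held few counts as well. The antisense gene Gm19261, which overlaps Ms4a6b by 442 bases on the other strand, had 7 counts in all. The pseudogene Gm5511, between Ms4a4c and Ms4a4b, had 2 counts, and the pseudogene Gm5692, which overlaps Ms4a4c by 235 bases on the other strand, had 0 counts. On the other side of Ms4a6b lies Ms4a4d, and Ms4a1 stands between Ms4a12 and Ms4a5, whose counts are given above.

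Markers of the other cells in which TMEM176 and MS4A genes are known were near the floor. None of 8 dendritic-cell markers reached 1 TPM in every library, and their sum ran from 0.284 to 0.418 TPM, beside 223 to 302 TPM for Tmem176b. Of the list, Clec9a, Siglech, Cd209a and Clec10a had 0 counts. Itgax, Zbtb46 and Flt3 held counts in every library, with means of 0.146, 0.0862 and 0.0732 TPM. Of 6 markers of innate lymphoid and gamma-delta T cells found, 0 reached that level, with sums from 0.444 to 1.65 TPM, Trdc highest at 0.505 TPM and Tcrg-C1 at 0.290 TPM, and Ncr1 and Zbtb16 at 0 counts. The macrophage and monocyte list (0 of 8) summed to 1.37 to 2.89 TPM, most of it Cd14 at 1.73 ± 0.784 TPM, with Cx3cr1 at 0.155 TPM and Fcgr1 at 0 counts. The mast-cell and basophil list (0 of 6) summed to 0.205 to 0.328 TPM, led by Hdc and Gata2 at 0.204 and 0.0399 TPM, with Fcer1a, Cpa3, Mcpt8 and Mcpt4 at 0 counts.

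The promoter windows were searched on both strands for letters tied to factors of T-cell responses. The nuclear receptor core AGGTCA occurred in 16.3% of all 32851 RefSeq promoter windows and the STAT pattern TTCNNNGAA in 8.30%, and neither was found in the 6 windows shown. The AP-1 pattern TGANTCA (7.81% of windows) occurred once in the Ms4a4b window, at base 273, within the start region it shares with Ms4a4c, and was not found in the Ms4a4c window. The Runx pattern TGTGGT (16.8% of windows) occurred once in the Ms4a4c window, at base 40, and not in that of Ms4a4b. Each match is a description of the letters in that window.

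Whether a member varied between libraries more than genes of its abundance was tested with edgeR's quasi-likelihood dispersions across 12156 genes. Of the 6 members, 4 passed the filter on low counts, and 0 of 4 passed the adjusted threshold of 0.05, beside 0.00823% of all genes tested. At an unadjusted p under 0.05 it was 3 of 4 (Ms4a6b, Tmem176a and Tmem176b), beside 4.90% of all genes. The fit takes its reference distribution from these same genes, so a share near 0.05 over all genes is built in. Tmem176a and Tmem176b moved together and are not separate observations. The dispersion of Ms4a6b was 25.8 times its trend and ranked 54 of 12156 (edgeR adjusted p = 0.4835), and with 1 replicate left out it ran from 11.41 times without replicate 3 to 33.12 times without replicate 2. Tmem176a and Tmem176b were at 9.79 and 8.32 times their trends (adjusted p = 0.875 and 0.8922), and Ms4a4b at 0.826 times (adjusted p = 0.9905).

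The call for Ms4a6b changed with the setting. With every gene that had a count, 126 genes passed (0.592%), Ms4a6b among them (edgeR adjusted p = 0.005962). With replicates 1 to 4 left out in turn, 0 of the 4 members passed, beside 0.00824%, 0.00814%, 0.00802% and 0.165% of genes. DESeq2 marked 1 of the 5 members with a count, Ms4a6b, as a dispersion outlier, beside 0.521% of genes. The gene that passed in the edgeR test with the filter was Xist, an RNA made by an inactive X chromosome, with 964 and 1058 CPM (counts scaled to library size, with no length) in replicates 1 and 2 and 11.9 and 3.25 CPM in replicates 3 and 4. None of the 4 members tested followed that division of the libraries, since each had one of its 2 highest values in replicates 1 and 2 and the other in replicates 3 and 4. The labels do not record sex, and whether it differed between replicates 1 and 2 and replicates 3 and 4 was not tested.

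Within a library, the TMEM176 pair and Ms4a6b moved in opposite directions in replicates 3 and 4. From the mean over libraries of log2(CPM + 1), Tmem176b deviated by 0.13, -0.072, 0.20 and -0.26 in replicates 1 to 4, and Tmem176a by 0.17, -0.13, 0.21 and -0.25. Ms4a6b deviated by 0.064, 0.072, -0.62 and 0.48. These 2 libraries also lay apart for many other genes: 2499 of the 12156 genes (20.6%) had their maximum in replicate 3 and their minimum in replicate 4 as the TMEM176 pair did, and 2486 (20.5%) had the reverse as Ms4a6b did. Replicate 3 is the library with the fewest counts, and the part of depth in this pattern was not tested.

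**Figure D4:**
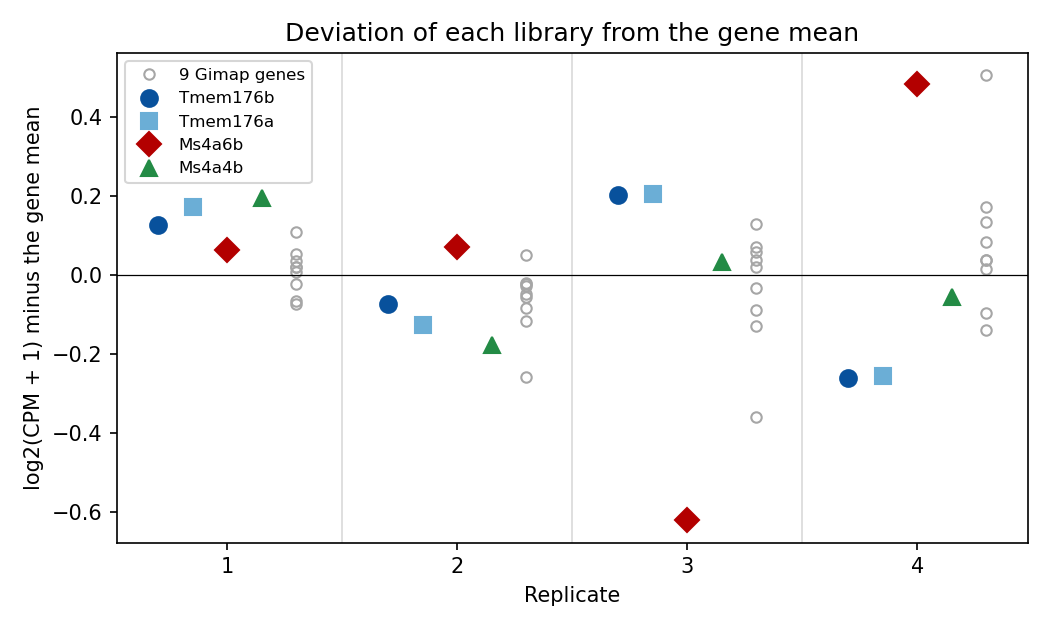
Deviation of log2(CPM + 1) from the gene's mean in each of the 4 replicates for the 4 members tested (filled markers) and 9 Gimap genes (open circles). Tmem176b and Tmem176a lie together in every replicate, above 0 in replicates 1 and 3, and Ms4a6b runs from -0.62 in replicate 3 to 0.48 in replicate 4.

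Lists of other genes were read against the same shares. Of the 12 Th17 genes, 5 had the extremes of the TMEM176 pair, replicate 3 high and replicate 4 low (41.7%): Il17a, Il17f, the receptor gene Il1r1, the chemokine gene Ccl20 and the transcription factor gene Batf. The reverse extremes were found in 2 of the 12 (16.7%), Rora and Stat3. The extremes of Ms4a6b, replicate 4 high and replicate 3 low, were found in 3 of the 6 interferon response genes in the fit (Usp18, Irf7 and Ifit1) and 4 of 7 naive T-cell genes (57.1%; Lef1, Ccr7, Il7r and Satb1). They were also found in 5 of 10 T-cell identity genes. The summed TPM of that identity list was 5349 in replicate 3 and 5963 in replicate 4. The sum mixes genes that moved in opposite directions. Trbc2 had 689 TPM in replicate 3 and 940 TPM in replicate 4, while Cd5 had 1397 and 1336 TPM. The part of T-cell content in the Ms4a6b values was not tested. Ms4a4b, with replicate 1 high and replicate 2 low, shared those extremes with 387 genes (3.18%).

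The genes most like each member over the 4 libraries were found by the Euclidean distance between deviations of log2(CPM + 1), among genes that deviated at least as much. For Tmem176b the nearest of 2272 were Tgfbr1, which encodes a TGF-beta receptor chain, Gm10762 and Ccdc112, at 0.0241, 0.0407 and 0.0434 log2 units. For Tmem176a the nearest of 2375 were Cep112, the chemokine receptor gene Cxcr6 and Ccdc112, at 0.0574, 0.0575 and 0.0681 log2 units. The 2 TMEM176 genes themselves lay 0.0703 log2 units apart. For Ms4a6b the nearest of 156 were Dpf1, the cyclin gene Ccng2 and the chemokine receptor gene Ccr3, at 0.0585, 0.0700 and 0.0752 log2 units, and for Ms4a4b the nearest of 3801 were the phosphodiesterase gene Pde4c, Grk4 and Arhgap10, at 0.0440, 0.0590 and 0.0755 log2 units. Ms4a6b lay 1.13 log2 units from Tmem176a and 1.12 from Tmem176b. Some of the named genes were low. Cep112 ran from 0.518 to 1.13 CPM and Gm10762 from 0.864 to 1.63 CPM, beside 161 to 221 CPM for Tmem176a. Their deviations rest on few counts and are shrunk by the added 1. Over 4 libraries such distances are a description of these libraries only.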

How the data were processed

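RNA sequencing of mouse Th17 cells was taken from 4 libraries of 1 group, grouped and numbered by the labels. The authors' deposited tables hold counts (whole numbers, 1 for each read pair assigned to a gene). The counter was featureCounts 1.4.6-p4 with stranded option 2, and the exons were those of GENCODE mouse release 13, per the file headers. Pairs that matched several places or several genes were not counted, per the same headers and that program's defaults, which sets duplicated genes too low. The genome is mm10 per the labels. Aligner version: not given in the sources used here. The tables also give the merged exon length of each gene (other unit, bases, per the file headers).

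Symbols came from GENCODE release 21 (50376 of 50600 identifiers matched; the rest held 0.0104% of counts). TPM and CPM were computed here from counts. Spread was tested with edgeR 4.0.16 (intercept only, TMM, filterByExpr, upper tail of the F distribution on the dispersion over its trend, Benjamini-Hochberg). DESeq2 1.42.0 served as an alternative. The test was checked on simulated data in which every gene had the dispersion of its trend. The scatter of genes around the trend, present in the real data, was not part of that check. Member pairs used an exact sign-flip permutation test. Poisson and binomial intervals (95%) and the floor of 3 counts cover counting error only. Alignments used Biopython 1.88 and promoter windows are from RefSeq (GRCm38.p6); a window was matched for 5 of the 6 members, not for Ms4a1.

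The members and lists were chosen with earlier results of these data known. Named are all members, Ms4a and Gimap genes with at least 1 TPM in some library, the genes beside members, the 3 genes most like each member, and in marker lists the 2 highest and those at 0 counts. Other names were chosen after their values were seen. Some genes of the lists are not reported here.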

Additional observations from a re-analysis of the deposited data

Results flagged for a closer look

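Gaps between 1 library and the other 3 were checked for 31 sets of 4 values, and 2 stood out by Dixon's criterion at its 95% critical value, as about 1 in 20 would by chance. Gimap4, near the TMEM176 pair on chromosome 6, had 476 TPM in replicate 2, while the other 3 libraries lay between 526 and 536 TPM. The summed mast-cell and basophil markers had 0.328 TPM in replicate 2, beside 0.205 to 0.224 TPM in the others, on few counts. No member was among them.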

How the results depend on the processing

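The settings moved levels more than directions. With the longest annotated transcript as length, the means were 221 TPM for Tmem176a and 304 TPM for Tmem176b, and their ratio 1.38. Without a length correction, Tmem176a, Tmem176b, Ms4a6b and Ms4a4b had 193, 193, 57.8 and 4.97 CPM, and the ratio of the TMEM176 pair was 1.00. With the longest protein-coding transcript, an alternative chosen after seeing the data, Tmem176a had 299 TPM and Ms4a4b 2.49 TPM, and the TMEM176 order reversed, at -0.097 log2 units and a ratio of 0.935. No other pair of members changed sign in any alternative run. In the test of spread, the number of genes past the threshold was 126 without a filter and 111 by DESeq2's outlier mark, and it ran from 1 to 20 when each replicate was left out in turn, with 20 without replicate 4. Ms4a6b passed without a filter (20.57 times its trend, edgeR adjusted p = 0.005962) and by DESeq2 (13.65 times). With each replicate left out, its edgeR adjusted p ran from 0.08355 without replicate 4 to 0.8873 without replicate 3, so it did not pass. At 0.1 TPM in place of 1 TPM, 4 Ms4a genes, 8 interferon response genes and 1 gene each of the B-cell, macrophage, mast-cell and innate lymphoid lists were detected in every library, and at 5 TPM 1 Ms4a gene was. Low counts limit statements on Ms4a4c and Ms4a1. No paired analysis was possible because the series has 1 group and no samples pair between groups, and members were compared within each library.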

Other observations

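The genes of other proteins that cross the membrane several times, the tetraspanins of lymphocytes, ranged in level from above Ms4a6b to below Ms4a4b in these libraries. Cd53 had 614, 687, 461 and 837 TPM in replicates 1 to 4, and Cd82 266, 270, 234 and 301 TPM. Cd81 had a mean of 128 ± 11.8 TPM, Cd37 76.0 ± 2.14 TPM, Cd9 53.9 ± 7.52 TPM and Cd151 10.3 ± 0.523 TPM, while Cd63 had 0.280 ± 0.0223 TPM (SD, n = 4). The gene of GITR, the receptor that MS4A4B binds, had 264, 278, 203 and 405 TPM (Tnfrsf18), and Tnfrsf4, its relative, had 1136 ± 115 TPM. In this list of 9 genes, 8 reached 1 TPM in every library. In 6 of the 8 in the fit (75.0%) the extremes were those of Ms4a6b, replicate 4 high and replicate 3 low, beside 20.5% of all genes in the fit.

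Among naive T-cell genes, with which Ms4a4b is known to be shared, 6 of 8 reached 1 TPM in every library, led by Tcf7 at 220 ± 2.45 TPM and Ccr7 at 187 ± 31.5 TPM, beside 3.09 TPM for Ms4a4b. Klf2 was at 0.599 ± 0.368 TPM. Of the 12 interferon response genes, 3 reached 1 TPM in every library, with Bst2 highest at 293 ± 6.70 TPM.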
